A study of Mus musculus with 15 samples.

Results

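NF-kappaB pathway genes were followed in hematopoietic stem cells (HSC) from young mice and from aged mice with or without nicotinamide riboside (NR), which is a vitamin B3 derivative and precursor of NAD. They were the 10 genes Nfkb1, Nfkb2, Rela, Relb, Rel, Nfkbia, Nfkbiz, Tnfaip3, Bcl3 and Ikbkb, taken by name from the deposited counts, where 10 of the 10 were present among 16154 genes. The mice were C57BL/6, female by their labels, aged 6 to 12 weeks (young) or 20 to 24 months (aged), and each group held 5 mice. The NR-treated aged mice drank water with 3 mg/ml NR for 2 months, and the other aged mice drank water without it. HSC were sorted as Lin-Sca-1+cKit+CD150+CD48- bone marrow cells, and each library, labelled as 1 mouse, was made from 20000 to 25000 cells by a method that reads the 3′ ends of transcripts and tags each molecule with a 10 bp unique molecular identifier (UMI).

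NF-kappaB is a family of dimeric transcription factors built from the subunits RelA, RelB, c-Rel (encoded by Rel), p50 (from Nfkb1) and p52 (from Nfkb2). Inhibitors such as IkappaBalpha (from Nfkbia) hold the dimers in the cytoplasm until the IkappaB kinase complex, which contains Ikbkb, marks them for degradation after signals from toll-like, interleukin or tumor necrosis factor receptors. The released dimers bind kappaB sites and induce inflammatory genes together with their own brakes, and in HSC the pathway is known for its part in inflammatory signaling and in the balance between self-renewal and differentiation.

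Because several of these genes are themselves known to be controlled by NF-kappaB, their promoters were read for the kappaB consensus, a motif of 10 bases. RefSeq sequences of build GRCm38.p6 were given for 6 of the 10 genes, with 9 start sites in all, and the 250 bases before each start were searched on both strands. Of 32851 promoters of all genes, 2382 (7.25%) held a match. Among the promoters of the pathway genes, 6 of 9, belonging to 4 of the 6 genes, held one. Nfkb1, Relb, Nfkbiz and Ikbkb had no promoter sequence to search. The promoter of Rel is shown because this gene changed most with age, that of Nfkbia because its match lies close to the start, and that of Bcl3 because it changed with age and holds no match. Capitals mark kappaB matches, and each sequence runs 5′ to 3′ on the gene's own strand, here the minus strand, at chr11:23770970-23771219 for Rel, chr12:55492648-55492897 for Nfkbia and chr7:19822756-19823005 for Bcl3.
Rel: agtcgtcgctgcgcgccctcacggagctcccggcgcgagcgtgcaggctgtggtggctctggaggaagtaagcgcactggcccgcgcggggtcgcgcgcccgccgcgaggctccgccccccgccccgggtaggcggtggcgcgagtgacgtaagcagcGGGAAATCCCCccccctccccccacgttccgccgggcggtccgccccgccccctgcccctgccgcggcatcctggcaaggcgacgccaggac
Nfkbia: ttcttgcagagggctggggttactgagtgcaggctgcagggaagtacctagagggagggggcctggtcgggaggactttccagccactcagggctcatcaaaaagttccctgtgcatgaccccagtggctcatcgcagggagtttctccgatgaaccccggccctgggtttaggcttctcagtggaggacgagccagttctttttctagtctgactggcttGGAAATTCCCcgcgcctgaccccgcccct
Bcl3: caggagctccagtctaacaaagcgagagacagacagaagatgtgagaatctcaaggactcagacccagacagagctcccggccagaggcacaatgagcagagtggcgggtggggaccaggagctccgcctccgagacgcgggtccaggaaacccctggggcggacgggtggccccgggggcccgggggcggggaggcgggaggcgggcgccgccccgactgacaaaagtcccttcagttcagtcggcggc
In Rel, 2 overlapping matches spanned the bases from 82 to 92 before the start. In Nfkbia, the match lay 20 to 29 bases before the start. In the window before the first Nfkb2 start, 3 matches were found, of which GGGAATTCCC and GGAATTCCCC overlapped and GGGGCTTTCC lay 2 to 11 bases before the start. Tnfaip3 held GGGACACCCC and GGAAATCCCC before its first start, and the window of Rela held none. These matches describe letters in the window and do not show that a factor binds there.

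The total count per library lay between 2122221 and 3631395 in young HSC, between 764119 and 13318989 in aged HSC and between 2486399 and 3595384 in HSC from NR-treated aged mice. The 12 HSC markers checked, among them Procr, Mecom, Hlf and Slamf1, were detected in all 15 libraries. Markers of other cells were also present, and in aged HSC the summed level of 9 erythroid genes was 3083 to 6587 CPM (counts scaled to the library total), against 145 to 2798 in young and 74.9 to 582 in NR-treated aged HSC. The summed level of 9 B cell markers (Cd79a was absent from the counts) was 104 to 879 CPM in young, 543 to 4006 in aged and 89.7 to 164 in NR-treated aged HSC. The summed level of 6 T and NK cell markers was 102 to 185, 79.8 to 120 and 55.7 to 164 CPM in the same order (Cd3e and Ncr1 were absent). Young replicate 3 stood apart with 5779 CPM of 10 neutrophil markers and 3339 CPM of 10 monocyte and macrophage markers, lists whose young medians were 72.9 and 511 CPM. The summed level of 4 Y-linked genes was 104 CPM in young replicate 1 and 108 CPM in young replicate 5, while the other 13 libraries held 0.757 to 3.16, although all mice are labelled female. Xist, the transcript of the inactive X chromosome, was also present in both of these, at 436 CPM in the first and 482 CPM in the second. The labels do not account for this mixture, and its origin was not tested. Whether these libraries each hold cells of 1 mouse is therefore not known. Mice and n in this text count libraries as labelled. Aged replicate 2 was the shallowest library. Calls and counts of the pathway genes that change when these 4 libraries are left out are given with both values. Levels below are CPM scaled by edgeR's trimmed mean of M values (TMM), where summed levels of gene lists use the library total instead. As the cells were measured in bulk, fewer expressing cells and less RNA per cell cannot be told apart.

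With age, Rel and Nfkb1 fell and Bcl3 rose, while the other 7 genes did not pass the test. These 3 of 10 genes (30%) stand beside 19.3% of all 16154 genes called between aged and young HSC by edgeR's quasi-likelihood test at a Benjamini-Hochberg adjusted p under 0.05. By direction, 9.68% of all genes were higher and 9.63% were lower in aged HSC, beside 1 and 2 of the 10. The median log2 fold change of the 10 genes was -0.05, against -0.03 over all genes, and 4 of the 10 values were positive and 6 negative. In 3 of the 10 genes the young and aged libraries did not overlap, compared with 12.4% of all genes. The number called was 2, Rel and Bcl3, without the 4 libraries named above, where 6.41% of all genes were called. It was 2, Rel and Nfkb1, with all libraries thinned at random to the smallest total, where 9.08% of all genes were called.

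**Figure D1:**
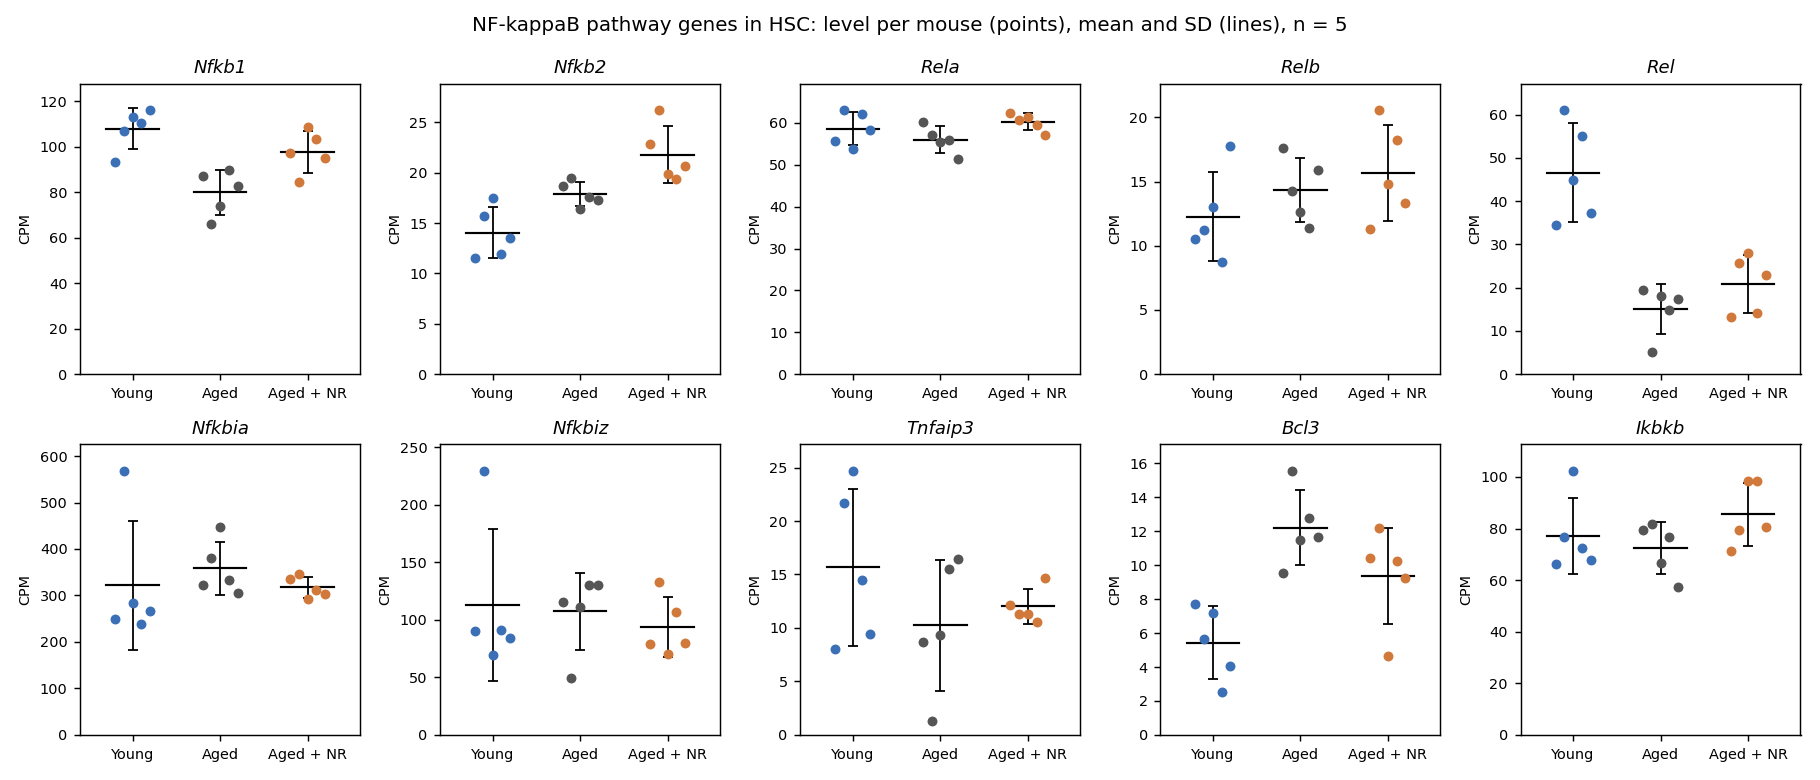
Levels of the 10 NF-kappaB pathway genes in CPM (vertical axes, starting at 0) in young, aged and NR-treated aged HSC. Points are mice, horizontal lines are means and error bars are SD (n = 5); Rel in all 5 young mice lies above every aged mouse with or without NR, and single young mice stand high for Nfkbia and Nfkbiz.

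Rel (chr11:23736847-23770970, minus strand, GRCm38) encodes c-Rel, a subunit best known from lymphocyte activation, and showed the clearest difference with age. Its level in the young libraries 1 to 5 was 34.4, 61.1, 44.9, 55.1 and 37.2 CPM. In the aged libraries it was 19.4, 5.19, 18.1, 14.9 and 17.5 CPM. Every young library was above every aged library, and the lowest aged value, from replicate 2, rested on 4 counts. The mean fell from 46.5 ± 11.4 (SD, n = 5) to 15.01 ± 5.72 CPM (SD, n = 5). This was a log2 fold change of -1.51 (SE 0.24, 95% confidence interval -2.01 to -1.01, adjusted p = 0.000219, edgeR quasi-likelihood test), or 2.85-fold lower in aged HSC. Rel ranked 264 of all genes by p-value in this comparison. It kept its call in every fit with 1 library left out (log2 -1.60 to -1.39), and the value was -1.73 without young replicates 1, 3 and 5 and aged replicate 2.

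Nfkb1 (chr3:135584655-135691547, minus strand) encodes p105, which is processed to the p50 subunit. The young libraries held 93.3, 107, 113, 111 and 116 CPM, and the aged libraries 87.4, 66.2, 74.0, 89.8 and 82.7 CPM. The groups lay close but did not overlap. The mean was 108 ± 8.91 (SD, n = 5) in young and 80.0 ± 9.83 CPM (SD, n = 5) in aged HSC. The log2 fold change was -0.42 (SE 0.11, adjusted p = 0.0108, edgeR), a smaller change than that of Rel. Without the 4 libraries named above the change was -0.38 and did not pass the test (adjusted p = 0.12).

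The other subunits did not pass the test with age. Rela, which encodes the p65 subunit of the canonical dimer, had the narrowest spread of the family, with a coefficient of variation between 3.36% and 6.73% in the 3 groups. Its level was 58.6 ± 3.94 in young and 56.0 ± 3.19 CPM in aged HSC (SD, n = 5). The 95% confidence interval of its log2 change, -0.27 to 0.14, covers small changes in either direction. Nfkb2, which encodes p100, the precursor of p52 in the non-canonical branch, was at 14.04 ± 2.52 in young and 17.9 ± 1.196 CPM in aged HSC (log2 0.34, adjusted p = 0.144, edgeR). Relb, the usual partner of p52, was at 12.3 ± 3.46 and 14.3 ± 2.50 CPM (log2 0.21, adjusted p = 0.536, edgeR).

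Since a count relative to another gene of the same library does not depend on the library scaling, the members were also expressed per 100 counts of Rela. Young libraries held 61.6 to 96.8 counts of Rel per 100 of Rela, and aged libraries held 9.09 to 33.98. NR-treated aged libraries held 21.3 to 45.6, again below every young library. For Nfkb1 the ratio was 167 to 210 in young, 116 to 161 in aged and 139 to 177 in NR-treated aged HSC. The order of the groups seen in CPM therefore also appeared in the ratios, which show unequal change of the subunits and not which of them stayed constant. For Bcl3 the ratio was 4.09 to 13.8 in young, 15.8 to 27.3 in aged and 7.59 to 20.1 in NR-treated aged HSC.

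**Figure D2:**
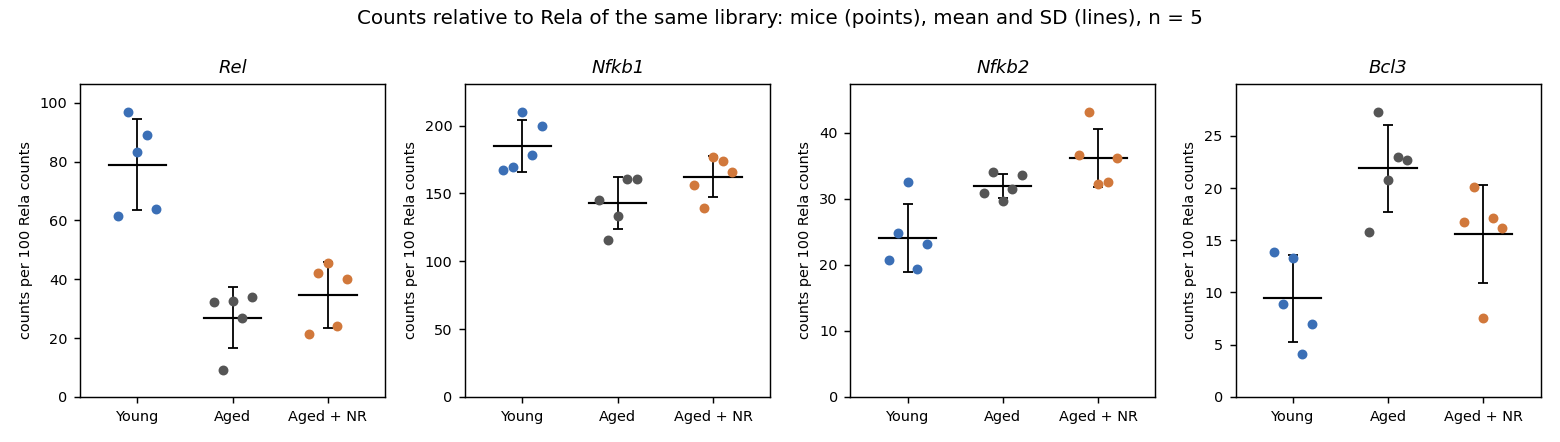
Counts of Rel, Nfkb1, Nfkb2 and Bcl3 per 100 counts of Rela in the same library (vertical axes, starting at 0) by group. Points are mice, horizontal lines are means and error bars are SD (n = 5); the young and aged points do not overlap for Rel, Nfkb1 and Bcl3, and overlap for Nfkb2.

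Bcl3 (chr7:19808462-19822770, minus strand) encodes an atypical IkappaB protein that binds p50 and p52 homodimers in the nucleus. The young libraries held 7.72, 5.63, 7.19, 2.54 and 4.05 CPM, and the aged libraries 9.54, 15.6, 11.5, 12.8 and 11.6 CPM. All aged libraries were above all young libraries. The mean was 5.42 ± 2.16 (SD, n = 5) in young and 12.2 ± 2.21 CPM (SD, n = 5) in aged HSC. The log2 fold change was 1.14 (SE 0.29, 95% confidence interval 0.53 to 1.74, adjusted p = 0.0103, edgeR). Bcl3 rested on 7 to 22 counts per young library, and after that thinning the change was 0.91 and did not pass the test (adjusted p = 0.21). An exon stretch of 161 bases (6.51% of its exonic bases) is shared with the opposite-strand gene Gm16175.

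Nfkbia, Nfkbiz and Tnfaip3, listed here as inhibitor and feedback genes, did not pass the test with age when all libraries were used. Nfkbia was at 322 ± 139 in young and 358 ± 57.2 CPM in aged HSC (SD, n = 5), with a log2 fold change of 0.16 (adjusted p = 0.609, edgeR). Its young libraries held 250, 568, 284, 238 and 268 CPM, so replicate 2 lay far above the other young mice. Without young replicate 2 the log2 change was 0.46 and passed the test (adjusted p = 0.00795, edgeR). Nfkbiz, which encodes the nuclear IkappaBzeta, had 90.5, 229, 69.2, 90.7 and 84.1 CPM in young libraries, where replicate 2 again stood high. Its aged libraries held 115, 49.3, 111, 130 and 131 CPM, and aged replicate 2 stood low. The log2 difference was -0.03 with all libraries and 0.40 without young replicate 2, neither past the threshold. Tnfaip3, which encodes the ubiquitin-editing enzyme A20, ranged from 8.07 to 24.7 CPM in young and from 1.30 to 16.5 CPM in aged HSC, where the lowest value was 1 count. Its log2 difference of -0.46 had a 95% confidence interval of -1.15 to 0.24.

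Young replicate 2 also had the highest summed level of 12 immediate early genes among young libraries, 8623 CPM against 4208 to 5778 in the other young mice. This list holds Fos, Fosb, Dusp1 and Nr4a1, genes known to respond within minutes to signals or handling. All 12 were detected, and their summed level was 4879 to 9847 CPM in aged and 2373 to 5116 CPM in NR-treated aged HSC. Their part in the levels of Nfkbia and Nfkbiz was not tested.

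The kinase gene Ikbkb, which encodes the catalytic subunit IKKbeta, was at 77.2 ± 14.7 CPM in young, 72.4 ± 10.2 CPM in aged and 85.5 ± 12.2 CPM in NR-treated aged HSC (SD, n = 5). Neither difference passed the test, with log2 changes of -0.10 with age and 0.25 for NR-treated aged against aged HSC (adjusted p = 0.665 and 0.269, edgeR). Young replicate 3 held 102 CPM, and the other young libraries 66.3 to 76.8. No cause of this value was tested.

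NR treatment gave no called change in any of the 10 genes, where 8.07% of all genes were called between NR-treated aged and aged HSC by edgeR's quasi-likelihood test (3.88% higher and 4.18% lower). At an unadjusted p under 0.05, 1 of the 10 passed, Nfkb1, compared with 25.1% of all genes. The likelihood ratio test of edgeR, DESeq2 and limma-voom also called 0 of the 10, beside 10.7%, 11.1% and 10.9% of all genes. The log2 differences lay between -0.33 for Bcl3 and 0.35 for Rel, 7 of them positive, with a median of 0.12 against 0.02 over all genes. In none of the 10 genes did the 2 groups of libraries separate completely, compared with 8.6% of all genes that did.

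The NR-treated aged libraries 1 to 5 held 13.3, 25.6, 28.0, 14.2 and 22.9 CPM of Rel. Of these, 3 lay above every aged library and the other 2 lay within their range. The mean was 20.8 ± 6.69 CPM (SD, n = 5), and the log2 difference to aged HSC was 0.35 (SE 0.24, 95% confidence interval -0.16 to 0.86, adjusted p = 0.385, edgeR). The interval includes no difference as well as a rise larger than the one measured. For Nfkb1 the NR-treated aged libraries held 97.5, 84.7, 109, 103 and 95.03 CPM. They were above the aged libraries except for replicate 2, and the log2 difference was 0.27 (SE 0.11, adjusted p = 0.116, edgeR). With library totals in place of TMM it was 0.41 and passed the test (adjusted p = 0.0212, edgeR). The median log2 difference over all genes then also moved, from 0.02 to 0.16. The Nfkb1 difference was 0.35 and passed (adjusted p = 0.0437, edgeR) when the test was limited to genes of 10 or more counts in every library. Bcl3 was at 10.5, 12.2, 4.67, 10.2 and 9.26 CPM, overlapping both other groups.

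Erythroid, neutrophil, B cell and monocyte or macrophage marker RNA differed in the same comparison. Of the 9 erythroid markers present, 9 were lower in NR-treated aged than in aged HSC, as were 8 of 10 neutrophil, 5 of 9 B cell and 5 of 10 monocyte and macrophage markers. Summed neutrophil markers were 1003 to 1633 CPM in aged and 16.3 to 175 CPM in NR-treated aged HSC. Summed monocyte and macrophage markers were 867 to 2153 and 318 to 566 CPM. Of the 6 T and NK cell markers 0 were called in this comparison. The immediate early genes were lower for 8 of 12. The part of these differences in the values of the pathway genes was not tested.

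Compared with young HSC, NR-treated aged HSC differed in 2 of the 10 genes, with 4.47% of all genes called by edgeR (2.56% higher and 1.91% lower). In both genes the libraries did not overlap, an arrangement found for 4.74% of all genes. Rel was lower by a log2 fold change of -1.16 (SE 0.24, 95% confidence interval -1.66 to -0.66, adjusted p = 0.00586, edgeR) and kept its call in every fit with 1 library left out. The comparisons of aged and of NR-treated aged HSC with young HSC share the young libraries, so their values, -1.51 and -1.16 for Rel, are given side by side. Nfkb2 was at 22.9, 26.2, 19.8, 19.4 and 20.7 CPM in NR-treated aged HSC and at 11.6, 15.7, 17.5, 12.0 and 13.5 CPM in young HSC. It was higher by a log2 fold change of 0.64 (SE 0.16, adjusted p = 0.0228, edgeR), with aged libraries at 16.4 to 19.5 CPM. This call was lost when young replicate 1, 4 or 5 or NR-treated replicate 2 was left out (log2 0.57 to 0.63, adjusted p = 0.0537 to 0.0727), and without young replicates 1 and 5 (adjusted p = 0.143) or all 4 libraries named above (adjusted p = 0.155). The exons of Nfkb2 (chr19:46304320-46312385, plus strand) overlap those of AC114539.1 by 11.6% and those of Psd by 6.52%, both on the opposite strand, and the strand setting of the counting is not given in the sources used here. Bcl3 had a log2 difference of 0.81 to young HSC that did not pass the test (adjusted p = 0.135, edgeR).

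**Figure D3:**
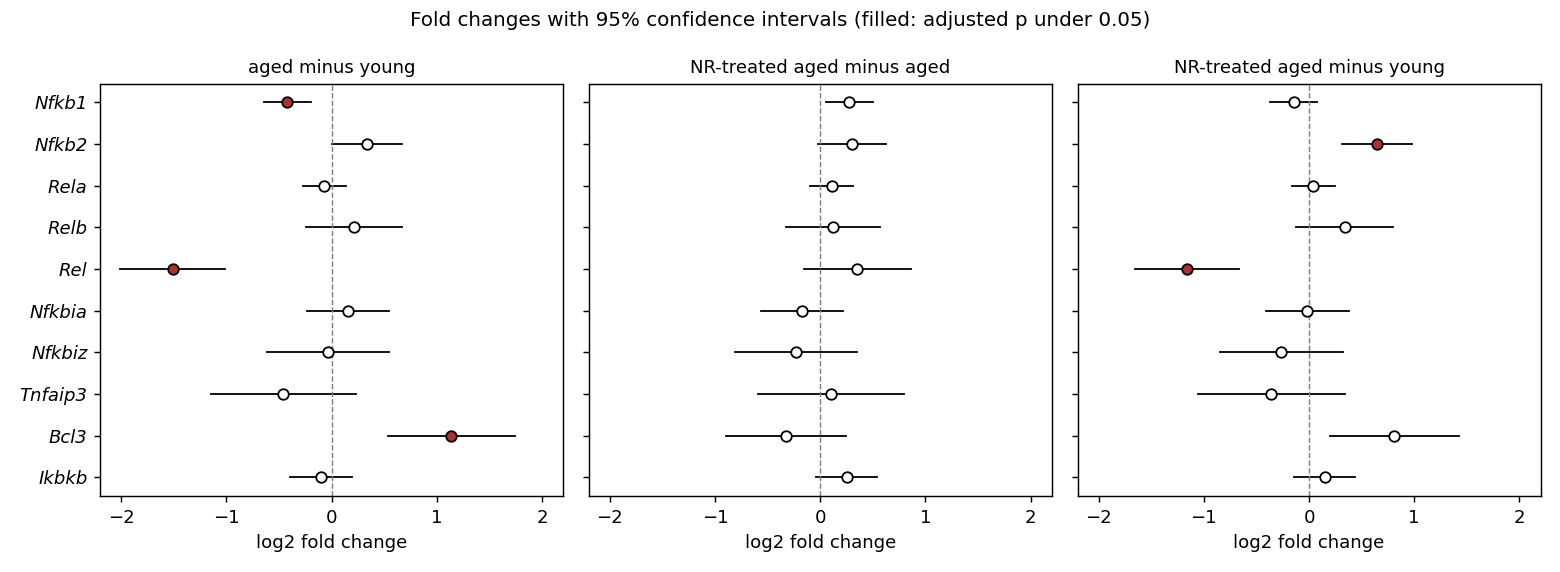
Log2 fold changes (horizontal axes) of the 10 genes in the 3 comparisons, with bars for 95% confidence intervals and filled points for an adjusted p under 0.05 (edgeR). Filled points are Nfkb1, Rel and Bcl3 for aged against young, none for NR-treated aged against aged, and Nfkb2 and Rel for NR-treated aged against young.

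Among 11349 genes whose mean reached 5 CPM, the 5 whose log2 CPM lay nearest to Rel over the 15 libraries were Flt3, Tiparp, Epb41l3, 9030619P08Rik and Ccnk. The measure was the root mean square difference of log2 CPM after centring each gene on its mean, which was 0.295 for Flt3 and 0.408 for Ccnk, against a median of 0.911 over all genes searched. Flt3 encodes a cytokine receptor best known from multipotent and lymphoid-primed progenitors. It was at 9.71 to 19.6 CPM in young, 1.30 to 4.80 CPM in aged and 2.82 to 7.78 CPM in NR-treated aged HSC. These 5 genes were picked for their likeness to Rel in the same libraries, so their levels are given as a description without a test. Aged replicate 2 was lowest for both, with 1 count of Flt3. The presence of Flt3-expressing progenitors in the sorted fraction and their part in the level of Rel were not tested.

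**Figure D4:**
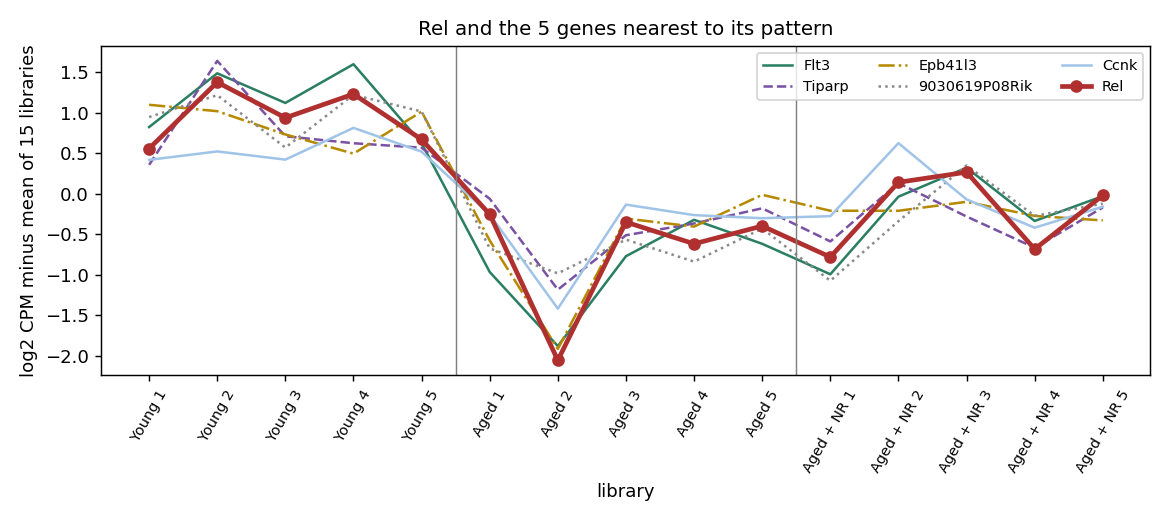
Log2 CPM minus the gene's mean over 15 libraries (vertical axis) for Rel (thick line with points) and the 5 genes nearest to it, by library (horizontal axis). All 6 genes lie above their mean in the 5 young libraries and all but 9030619P08Rik are lowest in aged replicate 2.

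Upstream and downstream of the 10 genes, a list of 53 other pathway genes held receptors, adaptors and kinases, and inhibitors, and 49 of them were present in the counts (Tlr1, Tlr7, Tlr9 and Cd40 were absent). With age 6 rose and 6 fell, so 12 of 49 were called, beside the 19.3% of all genes called in this comparison, and 37 were not. The 49 genes had a median log2 change of 0.0023 against -0.03 over all genes. The number was 7 without young replicate 4, 6 without aged replicate 3 and 5 without the 4 libraries named above. In these fits the share of all genes called was also smaller, at 13.1%, 12.1% and 6.41%. Tnip3, named as a protein that interacts with A20 and placed here among the inhibitors, had the lowest p-value of the list. Its level was 41.8 to 65.5 CPM in young, 143 to 186 CPM in aged and 120 to 177 CPM in NR-treated aged HSC. Tnip3 rose by 1.56 on the log2 scale with age (SE 0.14, adjusted p = 1.74e-07, edgeR) and was still 1.36 above young HSC after NR (adjusted p = 1.9e-06).

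Tax1bp1, an adaptor that brings A20 to its substrates, separated the aged group from both others. It was at 628 to 915 CPM in young, 1116 to 1304 CPM in aged and 718 to 902 CPM in NR-treated aged HSC. It rose with age by 0.70 (SE 0.11, adjusted p = 0.000285, edgeR) and was lower after NR by a log2 fold change of -0.56 (SE 0.11, adjusted p = 0.00834). Irak3, a kinase-dead brake on toll-like receptor signaling, rose with age by 0.68 (adjusted p = 0.00172, edgeR), from 51.6 ± 8.23 to 81.5 ± 10.6 CPM (SD, n = 5). Irak3 was at 74.5 ± 10.5 CPM in NR-treated aged HSC, a log2 fold change of 0.53 from young HSC (adjusted p = 0.027) that was lost in 5 of the 15 fits with 1 library left out, namely without young replicate 3 or 5 or NR-treated replicate 2, 3 or 4 (adjusted p = 0.0514 to 0.089). It was also lost with thinned counts (adjusted p = 0.253) and without the 4 libraries named above (adjusted p = 0.137). Of the 11 genes listed as inhibitors, 3 rose and 1 fell with age, beside 9.68% of all genes higher and 9.63% lower. The one that fell was Nfkbid, an atypical IkappaB, with 14.4 to 43.4 in young and 9.21 to 13.3 CPM in aged HSC (log2 -1.12, adjusted p = 0.00625, edgeR), a call lost with thinned counts (adjusted p = 0.0697). Nfkbid was at 7.34 to 13.6 CPM after NR, and its log2 fold change of -1.05 to young HSC was lost in 5 of 15 such fits (without young replicate 2 or 5 or NR-treated replicate 1, 2 or 4) with adjusted p = 0.0506 to 0.0735, and with thinned counts (adjusted p = 0.116).

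**Figure D5:**
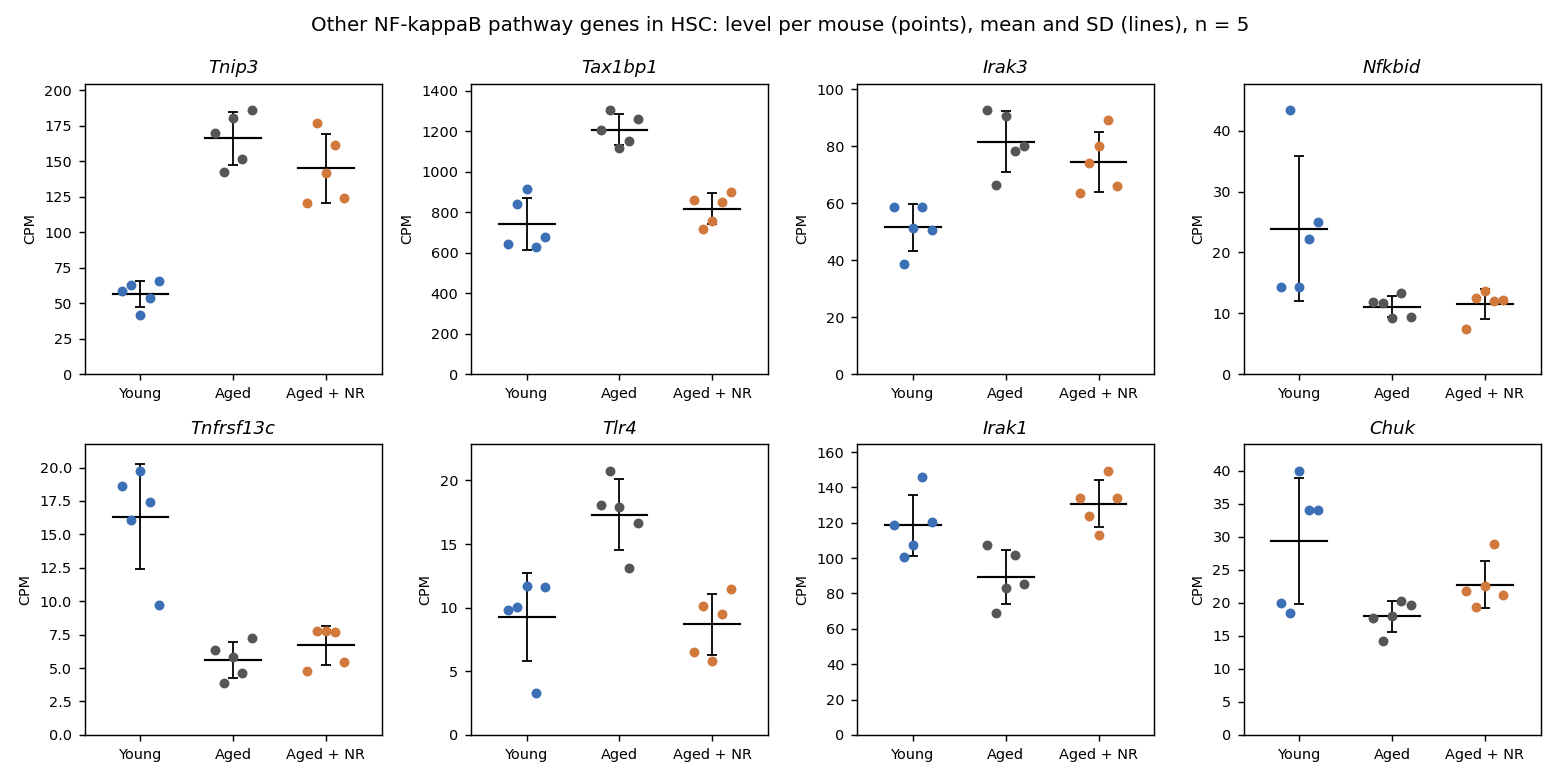
Levels in CPM (vertical axes, starting at 0) of 8 other pathway genes in young, aged and NR-treated aged HSC. Points are mice, horizontal lines are means and error bars are SD (n = 5); Tnip3 is above all young mice in both aged groups, while Tax1bp1 and Tlr4 are highest in aged mice without NR.

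Among 10 receptors present, 1 rose and 1 fell with age, beside 9.68% of all genes higher and 9.63% lower. Tlr4, the receptor for lipopolysaccharide, was at 9.28 ± 3.47 CPM in young, 17.3 ± 2.76 CPM in aged and 8.68 ± 2.41 CPM in NR-treated aged HSC (SD, n = 5). It rose with age by 0.87 (adjusted p = 0.0275, edgeR) and was lower after NR by a log2 fold change of -0.96 (adjusted p = 0.0325). The age call of Tlr4 was not followed through the alternative fits. The NR call was lost in 6 of 15 fits with 1 library left out, namely without aged replicate 2, 3 or 5 or NR-treated replicate 1, 3 or 4 (adjusted p = 0.0527 to 0.085), and with thinned counts (log2 -0.71, adjusted p = 0.333) and without the 4 libraries named above (adjusted p = 0.0529). Tlr4 is also expressed by monocytes and macrophages, of whose 10 markers 5 were lower after NR and 0 were called with age. The summed level of these markers was 395 to 3339 CPM in young (median 511) and 867 to 2153 CPM in aged HSC (median 1736). The part of these cells in either comparison was not tested. Tnfrsf13c, the receptor for the B cell survival factor BAFF, fell with age by 1.47 on the log2 scale (adjusted p = 0.000305, edgeR), from 16.3 ± 3.94 to 5.59 ± 1.34 CPM. After NR it was at 6.69 ± 1.45 CPM, with a log2 fold change of -1.28 from young HSC (adjusted p = 0.00293), a call lost with thinned counts (adjusted p = 0.187). By median the summed B cell markers were at 217 CPM in young, 2446 CPM in aged and 122 CPM in NR-treated aged HSC. The part of B cells in the level of Tnfrsf13c was not tested.

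Of 28 adaptors and kinases, 2 rose and 4 fell with age, beside 9.68% of all genes higher and 9.63% lower. Chuk, which encodes IKKalpha, the kinase of the non-canonical branch, was at 18.5 to 40.0 in young and 14.3 to 20.3 CPM in aged HSC, and the groups overlapped. It fell by 0.67 on the log2 scale (adjusted p = 0.0219, edgeR), a call lost without young replicate 3, 4 or 5 or aged replicate 3 (adjusted p = 0.0505 to 0.0611), or without the 4 libraries named above (log2 -0.48, adjusted p = 0.233). Irak1, a kinase downstream of toll-like and interleukin 1 receptors, was at 119 ± 17.3 CPM in young, 89.2 ± 15.4 CPM in aged and 131 ± 13.5 CPM in NR-treated aged HSC (SD, n = 5). It fell with age by 0.39 on the log2 scale (adjusted p = 0.0358, edgeR) and was 0.53 higher after NR (adjusted p = 0.017). For Irak1 too, the age call was not followed through the alternative fits. The NR call was lost without aged replicate 3 or NR-treated replicate 4 (adjusted p = 0.0528 and 0.0531) or without the 4 libraries named above (adjusted p = 0.0524). Over the 49 genes, NR-treated aged against aged HSC gave 1 gene higher and 2 lower, beside 8.07% of all genes called. The number called was 1 without aged replicate 3, without NR-treated replicate 4 or without the 4 libraries named above. Of all genes, 2.61%, 3.31% and 5.82% were called in these fits. Against young HSC, NR-treated aged HSC had 2 higher and 2 lower, beside 4.47% of all genes called. There were 2 called in all without young replicate 5, NR-treated replicate 2 or NR-treated replicate 4, where 3.72%, 3.06% and 2.8% of all genes were called.

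Targets of NF-kappaB were taken from a list of 38 known ones. Of these 28 were present, while Sele, Il1a, Il6, Cxcl1, Ccl20, Csf2, Nod2 and 3 Bcl2a1 paralogs were absent from the counts. With age 5 rose, 5 fell and 18 did not pass the test, beside 9.68% of all genes higher and 9.63% lower, and the median log2 change was 0.16 against -0.03 over all genes. The number called was 6 without young replicate 1, young replicate 4 or aged replicate 4, and 5 without aged replicate 2, without aged replicate 3 or without young replicates 1 and 5. Of all genes, 11.5% to 17.6% were called in these fits. Tnfaip2, a gene induced by tumor necrosis factor, rose from 91.6 ± 13.0 to 177 ± 14.8 CPM (SD, n = 5), a log2 fold change of 0.94 (adjusted p = 1.4e-05, edgeR). It was at 122 ± 15.5 CPM after NR, lower than in aged HSC by a log2 fold change of -0.52 (adjusted p = 0.0117), a call lost with thinned counts (adjusted p = 0.0569). Ccnd1, which encodes cyclin D1, rose by 0.80 (adjusted p = 0.0012, edgeR), from 45.1 ± 5.58 to 78.3 ± 11.7 CPM.

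Il15, a cytokine gene, fell with age by 0.65 on the log2 scale (adjusted p = 0.0084, edgeR), from 31.3 ± 7.04 to 20.1 ± 2.00 CPM (SD, n = 5). With counts thinned to the smallest total the value of Il15 was -0.35 and did not pass (adjusted p = 0.471). Cd69, an activation marker, fell by 0.92 (adjusted p = 0.0391), a call lost in 6 of 15 fits, without young replicate 1, 2 or 3 or aged replicate 1, 2 or 3 (adjusted p = 0.0507 to 0.108). Cxcl16 rose by 1.26 (adjusted p = 0.0387) and lost its call without young replicate 1, 4 or 5 or aged replicate 1, 2 or 3 (adjusted p = 0.0669 to 0.0948). Without the 4 libraries named above neither passed (adjusted p = 0.187 for Cd69, and 0.41 for Cxcl16 at a log2 value of 0.77), nor did they with thinned counts (adjusted p = 0.116 and 0.143). Cxcl2, a neutrophil attractant, shows how 1 library can carry a fold change. Young replicate 2 held 125 CPM of it, the other young libraries 1.75 to 12.3 and the aged libraries 2.59 to 5.51. The log2 fold change of Cxcl2 with age was -2.89 (adjusted p = 0.0141, edgeR) with that library and -0.73 (adjusted p = 0.26) without it, and -1.23 with limma-voom (adjusted p = 0.214).

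In NR-treated aged against aged HSC, 0 of the 28 targets were higher and 3 were lower, beside 3.88% and 4.18% of all genes, with a median log2 difference of -0.26 against 0.02 over all genes. Ccl3, which encodes a macrophage inflammatory chemokine, was at 8.24 to 22.1 CPM in aged and 2.38 to 5.48 CPM after NR (log2 -1.71, adjusted p = 0.0112, edgeR), a call lost with thinned counts (adjusted p = 0.0732). Ccl5, a T cell and monocyte attractant, was at 15.5 to 32.2 CPM in aged and 1.41 to 10.3 CPM after NR (log2 -1.99, adjusted p = 0.0203), a call lost without aged replicate 4 or NR-treated replicate 4 (adjusted p = 0.052 and 0.0531). Both chemokines are also made by mature blood cells, many of whose markers were lower in the same comparison as given above, and their part was not tested. Tnfaip2 was the third target that was lower.

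Against young HSC, NR-treated aged HSC had 1 target higher and 5 lower, beside 2.56% and 1.91% of all genes, with a median log2 difference of -0.57 against -0.0046 over all genes. The number called was 2 without NR-treated replicate 2 or without the 4 libraries named above, and 3 without young replicate 1 or 3 or NR-treated replicate 1, 4 or 5. Of all genes, 1.87% to 4.15% were called in these fits. Cxcl2 had a log2 fold change of -4.08 (adjusted p = 0.00932, edgeR), and of -1.92 without young replicate 2. With limma-voom it was -2.32 and did not pass (adjusted p = 0.268). Cd69 had a log2 fold change of -1.33 (adjusted p = 0.018), lost without young replicate 1 or NR-treated replicate 2 (adjusted p = 0.0505 and 0.056) and thinned (adjusted p = 0.0688). Il15 was lower by a log2 fold change of -0.66 (adjusted p = 0.02), lost without NR-treated replicate 2 or 5 (adjusted p = 0.0562 and 0.0525), while the thinned value was -0.33 (adjusted p = 0.659). Tnfaip2 was higher by a log2 fold change of 0.42 (adjusted p = 0.0414), which was lost in 8 of 15 fits with 1 library left out (adjusted p = 0.0521 to 0.109), namely young replicate 1, 3 or 5, aged replicate 1 or NR-treated replicate 1, 2, 4 or 5. Without the 4 libraries named above the values were 0.22 for Tnfaip2 (adjusted p = 0.583), -1.35 for Cd69 (adjusted p = 0.105) and -0.80 for Il15 (adjusted p = 0.072). Both comparisons of NR-treated aged HSC share the same 5 treated libraries. Against young HSC, 7 of 10 neutrophil, 6 of 9 erythroid and 3 of 9 B cell markers were also lower, as were 6 of 12 immediate early genes. Of the 10 monocyte and macrophage and the 6 T and NK cell markers 0 were called. The part of these differences in the levels of the targets was not tested.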

How the data were processed

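RNA-seq was made from sorted HSC of 5 young, 5 aged and 5 NR-treated aged mice. The authors aligned reads to GRCm38 with STAR 2.4.2a, removed duplicated UMIs, counted reads on GENCODE exons with featureCounts, kept genes with enough reads, and deposited counts per gene without normalisation. The table held 16154 genes, and its 15 columns were all used. With edgeR 4.0.16 in R 4.3.3, the 15 libraries were fitted together on TMM sizes, group being the sole term, and tested by quasi-likelihood with Benjamini-Hochberg adjustment over all genes. The likelihood ratio test, which the study used, was an alternative. SE values are the log2 fold change divided by the root of F. Other alternatives were DESeq2 1.42.0, limma 3.58.1 (voom), only the 2 groups compared, library totals or median-of-ratios sizes, at least 10 counts in every library, thinning of counts to the smallest total, a block for the replicate number, an adjusted p under 0.01, young replicates 1 and 5 left out and each library left out. Leaving out young replicates 1, 3 and 5 and aged replicate 2 was added after seeing the data. On simulated data for aged against young with 16154 genes, 200 of them changed 2-fold, the quasi-likelihood test recovered 72% with 4% false calls. The changed genes were drawn from those with a mean of at least 5 CPM, and the counts used dispersions estimated from the data. Smaller changes and the NR comparison were not simulated.

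Levels of 3 counts or fewer were taken as not told from absence, which covers counting error only. The labels describe cells of individual mice. Within groups, every pair of libraries differed by more than sampling noise (chi-square divided by its degrees of freedom, 3.21 to 17.5). Replicate numbers were not treated as pairs. Positions are from GENCODE M21, while the authors counted on another release. Genes named beside the 10 were, in each comparison, up to 3 called genes per direction with the lowest p and a mean of at least 5 CPM, taken separately from the other pathway genes and from the targets, and the 5 genes nearest to Rel, the pathway gene with the lowest p with age. Values of a gene so named are also given for the other comparisons. The 10 genes and all lists were chosen with earlier results of these data known.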

Additional observations from a re-analysis of the deposited data

Results flagged for a closer look

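In each of the 10 genes and 3 groups, the highest and the lowest library were compared with the others by Dixon's ratio, and 4 of the 30 groups held a library far from the rest, where chance gives about 1 in 20. Nfkbia in young replicate 2 was 568.25 CPM, against 237.6 to 284.3 CPM in the other young libraries. Nfkbiz in the same library was 229.47 CPM, against 69.2 to 90.7 CPM. Nfkbiz in aged replicate 2, the shallowest library, was 49.3 CPM from 38 counts, against 111 to 131 CPM. Ikbkb in young replicate 3 was 102.4 CPM, against 66.3 to 76.8 CPM. No cause was tested for these values.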

How the results depend on the processing

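The number of the 10 genes called was 3 with age, 0 for NR-treated aged against aged and 2 for NR-treated aged against young HSC. With 1 library left out these were 3 to 4, 0 to 0 and 1 to 2. Of all genes 12.1% to 21.9%, 2.61% to 9.5% and 2.8% to 5.71% were called in those fits. They were 1, 1 and 1 among the 7 genes of 10 or more counts in every library (Rel, Tnfaip3 and Bcl3 were then not tested). Of all genes so limited 25.8%, 9.27% and 6% were called. At an adjusted p under 0.01 they were 1, 0 and 1, beside 8.15%, 1.29% and 1.92% of all genes. With library totals 1 gene was called for NR, beside 9.84% of all genes. With age the number was 2 thinned and 2 without the 4 doubted libraries, beside 9.08% and 6.41% of all genes. For NR-treated aged against young the number was 1 with only the 2 groups, 1 thinned, 1 without young replicates 1 and 5, and 1 without the 4 doubted libraries. Of all genes 3.22%, 2.48%, 3.61% and 1.87% were called there. The cause of these moves was not tested, and several of these fits held fewer libraries, genes or counts. Over all alternatives the other pathway genes called were 5 to 15 (12 as reported), 1 to 3 (3) and 1 to 6 (4), and the targets 3 to 13 (10), 0 to 3 (3) and 1 to 7 (6). The share of all genes called lay between 6.41% and 25.8%, between 1.29% and 11.1% and between 1.87% and 6.64% in the same order. Rel kept its call and direction against young HSC in every alternative in which it was tested at an adjusted p under 0.05. With library totals the share of called genes that were higher moved from 50.1% to 29.1% with age and from 48.1% to 78.4% for NR, and the median log2 change over all genes from -0.03 to -0.16 and from 0.02 to 0.16.

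Same-numbered libraries deviated together with a mean correlation of 0.00211, and 1 of 15 correlated best with its own number. With the replicate block 3, 0 and 2 of the 10 genes were called (2836, 1048 and 589 of all genes), 5 in place of 10 targets were called with age, Cxcl2 and Cd69 lost their calls with age, and Tnfaip2 lost its call for NR-treated aged against young HSC.

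Uncalled values changed sign as follows. With age, Nfkbiz was 0.14 with limma-voom, 0.028 thinned, 0.13 with the block and -0.15 to 0.40 with 1 library left out. Relb was -0.084 thinned, Nfkbia -0.022 without young replicates 1 and 5 and -0.19 without the 4 doubted libraries, and Ikbkb -0.15 to 0.022 with 1 library left out. For NR against aged, Rela was -0.020 thinned, and Tnfaip3 -0.037 without the 4 libraries and -0.037 to 0.29 with 1 left out. For NR-treated aged against young, Nfkbia was 0.070 with limma-voom, 0.0037 with library totals, 0.043 thinned, 0.052 with the block and -0.11 to 0.29 with 1 left out, Rela -0.030 thinned and -0.055 without the 4 libraries, and Nfkbiz -0.42 to 0.16 with 1 left out. Depth limits Tnfaip3, Rel, Relb, Bcl3 and Nfkb2 most, where the shallowest library held 1, 4, 11, 12 and 15 counts. For Bcl3 the lowest count was 7, in young replicate 4.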
